A study of Homo sapiens with 17 samples.

Results

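The genes examined were GAPDH, PGK1, ENO1, ALDOA, LDHA, PKM, TPI1, PGAM1, HK2 and PFKP, chosen by symbol as 10 glycolytic enzymes. All 10 were present among the 19222 genes of the 1 h table and in the 2 h tables. All 10 also passed the read minimum for the level test, as did 13776 genes in all, and the minimum for the fraction new test, as did 10763.

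Glycolysis splits glucose into pyruvate in a chain of enzyme steps, and lactate dehydrogenase then turns pyruvate into lactate. The hexokinase and phosphofructokinase steps use ATP and are the regulated entry points of the pathway, whereas most enzymes of the later steps are made in large amounts in nearly every growing cell. Cultured lines such as HEK-293T, an established human embryonic kidney line, use this route heavily, and the mRNAs of several of its enzymes serve as reference transcripts in RNA measurements.

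In the 1 h experiment, wild-type HEK-293T cells were labeled with 500 µM 4-thiouridine (s4U) for 1 h, either untreated or with 1.8 µM emetine, an inhibitor of translation elongation, with 3 libraries in each group. An untreated and an emetine-treated library without s4U, 1 each, served as the unlabeled controls. In the 2 h experiment there were 3 libraries each of cells untreated, with 1.8 µM emetine and with 240 µM emetine, all labeled with 250 µM s4U according to their labels. TL-seq converts incorporated s4U so that it is read as C in place of T, and the comparison asks which mRNAs changed in level or in their share of newly made molecules while elongation was blocked. The labels number the replicates but do not say that they came from separate cultures, so the p-values measure the spread between these libraries.

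The 8 libraries of the 1 h experiment held between 22246279 and 40018063 reads given to genes. Of the markers for HEK-293T cells, VIM lay between 467 and 652 CPM (gene reads scaled to library size) and CDH2 between 62.3 and 107 CPM, while NES (4.84 to 6.74), LHX1 (2.48 to 4.09) and PAX2 (1.22 to 2.91) were low. Of 7 markers of other cell types, PTPRC, INS and KRT5 had 0 reads in the 8 libraries, ALB had 21, CDH5 6, MYH7 4 and HBG1 1. Emetine replicate 3 was unlike the rest. The SD of its deviations from the group mean over genes was 0.30, against 0.16 to 0.20 in the other libraries with s4U. Its deviations rose with transcript length (Spearman's rho 0.70 across genes). The rho of -0.60 and -0.59 for emetine replicates 1 and 2 is no separate observation, because deviations from a mean of 3 libraries cancel out.

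Because conversions can be read only at T positions, and because several of these genes have near-identical copies elsewhere in the genome, the sequences themselves bear on the measurements. The first 90 coding bases of GAPDH (glyceraldehyde-3-phosphate dehydrogenase) and HK2 (hexokinase 2) are shown because these mRNAs were the most abundant member and the member with the highest fraction new. T positions, where s4U could be read as C, are in capitals.
GAPDH: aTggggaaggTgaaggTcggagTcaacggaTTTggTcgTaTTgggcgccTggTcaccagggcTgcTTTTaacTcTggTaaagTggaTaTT
HK2: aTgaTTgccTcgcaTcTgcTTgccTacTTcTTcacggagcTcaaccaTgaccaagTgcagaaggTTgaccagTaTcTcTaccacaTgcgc
On GRCh38 (hg38), plus strand, the GAPDH stretch covers chr12:6534833-6534861 in exon 2 and chr12:6536494-6536554 in exon 3, and the HK2 stretch covers chr2:74834581-74834643 in exon 1 and chr2:74854293-74854319 in exon 2. They hold 25 and 23 T positions. Over the untreated libraries with s4U, reads of GAPDH covered 34.9 T positions on average and reads of HK2 47.3, against a median of 41.8 over the 10763 genes.

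PGAM1, phosphoglycerate mutase 1, is the member with the most repeated sequence. PGAM4, an intronless copy, lies on the minus strand of the X chromosome at chrX:77967949-77969638, inside the span of PGK1 on the plus strand (chrX:77910739-78129295). Over the 765 coding bases of PGAM1, the copy differed at 13, of which 4 have T in PGAM1 and C in PGAM4, the same change that an s4U conversion makes, and 3 have the opposite. The longest coding run without a difference was 269 bases. The 90-base coding window with the most differences is shown with the differing bases in capitals.
PGAM1: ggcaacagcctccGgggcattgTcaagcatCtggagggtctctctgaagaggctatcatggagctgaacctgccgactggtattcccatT
PGAM4: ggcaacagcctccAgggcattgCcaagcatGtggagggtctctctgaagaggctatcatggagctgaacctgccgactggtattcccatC
Counted from the A of the PGAM1 start codon, with the PGAM1 base first, these are G572A, T581C, C589G and T648C. The window lies at chr10:97431099-97431135 in exon 3 and chr10:97432355-97432407 in exon 4 of PGAM1 (plus strand), and at chrX:77968991-77969080 in PGAM4 (minus strand).

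Repeated sequence varied widely among the members. Each canonical transcript was cut into 50-base windows, and a window counted as repeated when the same letters, with T read as C, stood elsewhere in the genome. The repeated share was 93.6% of windows in PGAM1, 63.4% in GAPDH and 61.9% in TPI1. It was 31.8% in LDHA, 30.1% in HK2, 17.2% in PGK1 and 16.7% in PKM. The most repeated window of PGK1 stood at 34923 other places, against 10 for GAPDH and 7 for PGAM1. ALDOA (9.68%), ENO1 (8.31%) and PFKP (0.272%) had the fewest repeated windows. The annotation names 65 pseudogenes after GAPDH and 13 after PGAM1, between 1 and 6 after each of LDHA, PKM, ENO1, TPI1, PGK1, ALDOA and HK2, and 0 after PFKP.

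An intronless copy has no exon junctions. The share of reads aligned across an exon junction was lowest for PGAM1 and HK2, and the reason was not tested. The HK2 transcript has 5626 bases, of which 2754 are coding. In the untreated libraries with s4U, 82.3% of PFKP reads crossed a junction, and between 35.4% (LDHA) and 73.3% (ALDOA) did so for the 7 members other than PFKP, PGAM1 and HK2. The share was 10.1% for HK2 and 5.23% for PGAM1, against a median of 28.3% over genes. GAPDH and TPI1, next to PGAM1 in repeated windows, had 63.3% and 46.4%. PGAM1 reads also held 68.3 T positions on average, more than 99.99% of the genes tested. PGAM1 had 3718 reads over the 8 libraries, against 999323 for GAPDH, so its values are uncertain throughout. In the table, 0 reads of any member carried the mark for overlapping annotated genes. That mark does not cover reads that fit a copy elsewhere in the genome. How many reads of GAPDH, TPI1 or PGAM1 were lost to or taken from copies was not tested.

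**Figure D1:**
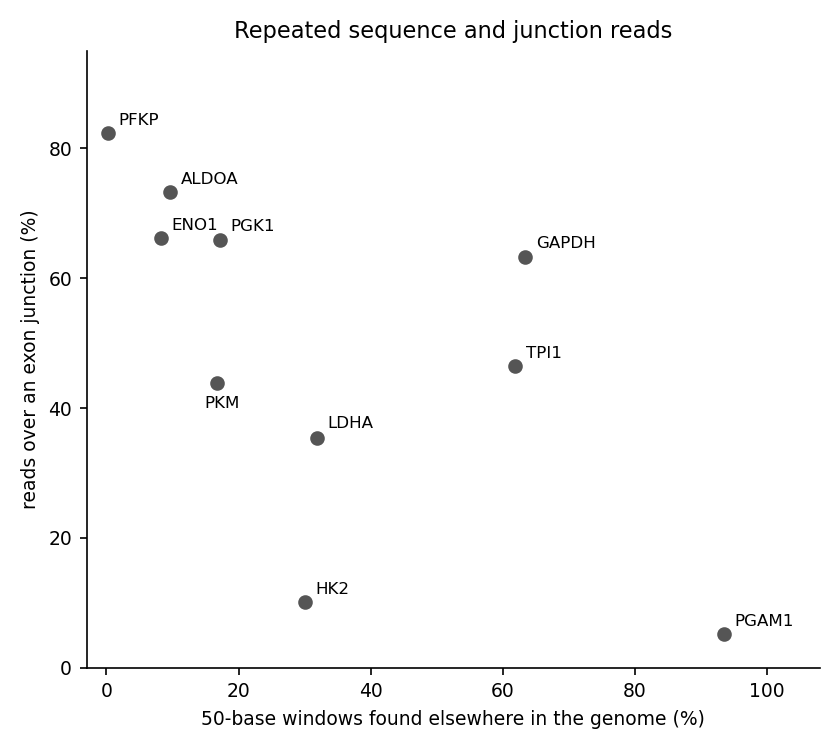
Share of 50-base transcript windows found elsewhere in the genome with T read as C (x axis, percent) against the share of reads over an exon junction in the 3 untreated libraries with s4U (y axis, percent), 1 point per gene. PGAM1 sits at 93.6% repeated windows and 5.23% junction reads, PFKP at 0.272% and 82.3%.

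The members spanned a wide range of levels in untreated cells, which were compared per kilobase of the canonical transcript. GAPDH stood at 3711 ± 254 CPM per kb (SD, n = 3), above 99.98% of 12697 genes with a length. ENO1 (enolase 1) followed at 2344 ± 121 and ALDOA (aldolase A) at 1672 ± 113 CPM per kb. These are enzymes of the middle and lower pathway, as are the next members in the order. TPI1 (triosephosphate isomerase) stood at 1350 ± 51.6, PKM (pyruvate kinase M) at 912 ± 28.6 and LDHA (lactate dehydrogenase A) at 809 ± 17.5 CPM per kb. PGK1, the phosphoglycerate kinase, stood at 164 ± 2.79 CPM per kb on a canonical transcript of 4812 bases, of which 1254 are coding. Of its reads 65.9% crossed a junction, against 66.1% for ENO1 on 1781 bases. Whether the cells made the full PGK1 length was not tested, and a shorter form would have a higher value per kb. The entry enzymes were far lower, with PFKP (platelet-type phosphofructokinase) at 35.6 ± 1.10 and HK2 at 13.9 ± 0.135 CPM per kb. PGAM1 was lowest in the reads given to it, at 11.7 ± 6.03, with 93.6% of its windows repeated elsewhere in the genome. The median gene stood at 7.14 CPM per kb. The ranges of the 3 untreated libraries did not overlap between any neighbours in this order, except for HK2 and PGAM1.

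In the 2 h tables, only the mean of normalized counts over all 2 h libraries was used, which the authors pooled over untreated and emetine-treated cells, so that no error can be given. On a per-kb scale, GAPDH (26777) and ENO1 (12684) again led, above 99.9% and 99.7% of 9362 genes. The order of the members between them differed from the untreated 1 h libraries, with LDHA at 6771, PKM at 5116, TPI1 at 4698 and ALDOA at 3955 per kb, the reverse of their 1 h order. PFKP and HK2 also changed places. HK2 had an authors' mean of 513 per kb, above 75.1% of the 9362 genes, and PFKP one of 168, above 35.6%. In the untreated 1 h libraries the shares of genes below them were 64.1% and 81.3%, but of a larger set of 12697 genes. The 1 h libraries were made with an mRNA kit and the 2 h libraries with a total RNA kit, and the pooled mean includes emetine, so kit, time and treatment cannot be told apart.

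After 1 h of emetine, 9 of the 10 members had a lower level than in untreated cells and 1, HK2, a higher one, but none passed the test across all genes (edgeR quasi-likelihood test, adjusted p between 0.18 and 0.27). The median log2 change was -0.32 over the members and 0.03 over all 13776 genes. Of all genes, 0.0436% were called lower and 2.64% higher at an adjusted p under 0.05. At an unadjusted p under 0.05, 8 members differed, as did 958 genes that were lower and 2056 that were higher. DESeq2, run on the same counts, called 3 members lower, PGK1 (adjusted p = 0.033), ENO1 (adjusted p = 0.049) and PKM (adjusted p = 0.027), beside 156 lower and 820 higher genes in all. CPM is a share of a library's gene reads, so less RNA of a gene and more RNA of other genes cannot be told apart, nor can fewer cells and less RNA per cell.

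GAPDH, which oxidizes glyceraldehyde 3-phosphate, had 4391, 4941 and 4973 CPM in the 3 untreated libraries and 3739, 4299 and 2904 CPM in the 3 emetine libraries. All 3 emetine libraries lay below all 3 untreated ones, and emetine replicate 3 was lowest. The log2 change was -0.39 (SE 0.16, adjusted p = 0.21).

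ENO1, which makes phosphoenolpyruvate, had 3931, 4340 and 4255 CPM untreated and 3429, 3662 and 2857 CPM with emetine. The groups did not overlap, and the log2 change was -0.33 (SE 0.13, adjusted p = 0.20). ALDOA, which splits fructose 1,6-bisphosphate, had 2532, 2807 and 2887 CPM untreated and 2186, 2437 and 1678 CPM with emetine. Here too every emetine library was below every untreated one, with a log2 change of -0.38 (SE 0.15, adjusted p = 0.20).

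The pattern was alike for the remaining abundant members. TPI1, which interconverts the triose phosphates, had 1748, 1839 and 1885 CPM untreated and 1463, 1673 and 1136 CPM with emetine, a log2 change of -0.36 (SE 0.15, adjusted p = 0.21). PKM, which makes pyruvate, had 2025, 2139 and 2140 CPM untreated and 1720, 1847 and 1555 CPM with emetine, a log2 change of -0.30 (SE 0.11, adjusted p = 0.19). The groups overlapped for neither gene.

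LDHA, which reduces pyruvate to lactate, had 1844, 1769 and 1826 CPM untreated and 1569, 1599 and 1265 CPM with emetine, a log2 change of -0.30 (SE 0.12, adjusted p = 0.21). PGK1, which makes ATP from 1,3-bisphosphoglycerate, had 775, 802 and 786 CPM untreated and 675, 684 and 600.2 CPM with emetine, a log2 change of -0.27 (SE 0.10, adjusted p = 0.18). PFKP had 92.6, 91.0 and 96.6 CPM untreated and 87.0, 83.7 and 79.1 CPM with emetine, a log2 change of -0.16 (SE 0.08, adjusted p = 0.26). For these 3 genes, too, the emetine libraries lay below the untreated ones without overlap.

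HK2, which phosphorylates glucose on entry, went the other way in value. It had 78.8, 77.5 and 78.9 CPM untreated and 85.8, 80.9 and 119 CPM with emetine. Each emetine library was above each untreated one, and emetine replicate 3 was well above the other two. The log2 change was 0.28 (SE 0.14, adjusted p = 0.27). Without emetine replicate 3 it was 0.09 (SE 0.06, adjusted p = 0.33), and with the trend on transcript length and GC content removed it was 0.11 (SE 0.08, adjusted p = 0.36). In that library 27.3% of HK2 reads crossed a junction, against 8.14% to 11.1% in the other 5 libraries with s4U, whose part in the result was not tested.

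PGAM1 had 15.6, 33.7 and 14.3 CPM untreated and 9.48, 17.0 and 5.18 CPM with emetine. The groups overlapped, and the log2 change of -0.998 had an SE of 0.43 (adjusted p = 0.22). Without untreated replicate 2, the highest library, it was -0.49 (SE 0.41, adjusted p = 0.55).

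In all, 8 members were lower in every emetine library than in every untreated one, which held for 15.2% of all genes tested, and 1 member was higher, which held for 19.5%. The 10 genes together took 1.69%, 1.80% and 1.80% of gene reads in the untreated libraries and 1.53%, 1.64% and 1.34% in the emetine libraries. Without s4U they took 1.62% untreated and 1.501% with emetine.

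**Figure D2:**
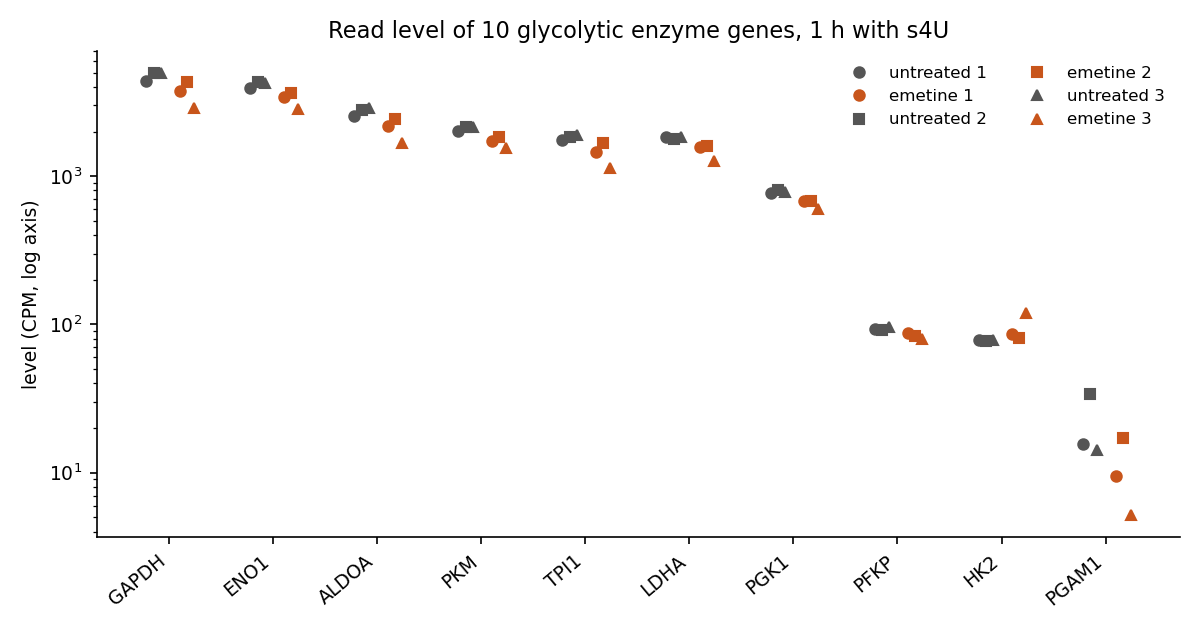
Level of each gene in CPM (log axis) in the 3 untreated (gray) and 3 emetine (orange) libraries with s4U, with marker shapes for replicates 1 to 3. Emetine replicate 3 (orange triangle) is the lowest library for each gene except HK2, where it is the highest at 119 CPM.

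The level changes depended on emetine replicate 3 and on the scaling. Without that library, the changes of the 8 members lower without overlap became smaller in value. PGK1 (log2 change -0.21, adjusted p = 0.028), PKM (-0.23, adjusted p = 0.029), ENO1 (-0.23, adjusted p = 0.041) and ALDOA (-0.24, adjusted p = 0.045) then fell past the threshold, beside 527 lower and 1365 higher genes in all. With all libraries and the trend on transcript length and GC content removed, edgeR called 5 members lower, beside 514 lower and 678 higher genes in all. They were PGK1 (-0.44, adjusted p = 0.041), LDHA (-0.34, adjusted p = 0.024), PKM (-0.27, adjusted p = 0.023), ALDOA (-0.27, adjusted p = 0.043) and ENO1 (-0.25, adjusted p = 0.037). Spike-in reads made up 0.667%, 0.480% and 0.728% of reads in untreated replicates 1 to 3 with s4U. The shares were 0.304%, 0.666% and 0.408% in emetine replicates 1 to 3, so the groups overlapped. Without s4U they were 0.501% untreated and 0.580% with emetine. Scaling to the spike-in reads raised the median of all genes by 0.68 on the log2 scale. It turned the sign of 8 members, to log2 changes between 0.25 for GAPDH and 0.53 for PFKP, none past the threshold, with an SE of 0.43 for GAPDH. All 8 values lay below the shifted median of all genes, 0.71.

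**Figure D3:**
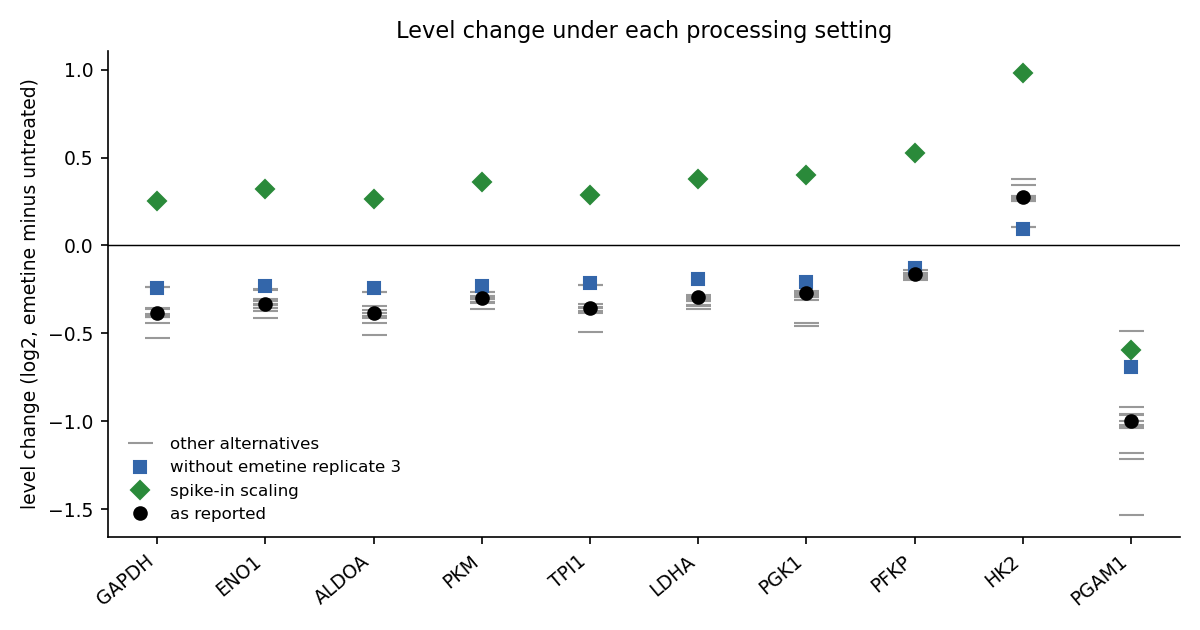
Log2 change in level, emetine minus untreated (y axis), for each gene as reported (black), without emetine replicate 3 (blue), with spike-in scaling (green) and under the other alternatives (gray dashes). Spike-in scaling moves GAPDH from -0.39 to 0.25, while without emetine replicate 3 HK2 moves from 0.28 to 0.09.

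The libraries without s4U give 1 emetine against 1 untreated value per gene, with no replicate check. The log2 ratio was -0.12 for GAPDH, -0.15 for ENO1, -0.21 for ALDOA, -0.17 for TPI1, -0.18 for PKM, -0.09 for LDHA, -0.17 for PGK1 and -0.01 for PFKP. These 8 had the sign seen with s4U. HK2 (-0.10) and PGAM1 (0.26) had the opposite sign to theirs with s4U.

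Fraction new is the share of a gene's reads made during the hour of labeling, estimated from conversions per read. In the libraries without s4U it sat at the lower bound of the estimate, 0.1%, for all members, except for HK2 at 0.26% in the untreated one. In the untreated libraries with s4U the median gene had a fraction new of 9.26%, 12.3% and 14.7%, so replicate 1 read lowest and replicate 3 highest for genes at large.

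Of the 10 members, 9 lay below the median gene in fraction new in each untreated library. PGK1 was lowest, with 2.12%, 2.77% and 3.13% in the 3 untreated libraries, and 3.37% of the genes tested were lower. TPI1 had 2.36%, 3.25% and 3.43%, and ALDOA 2.45%, 3.46% and 3.52%. All 3 were lowest in the library where the median gene was lowest.

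PKM had 2.29%, 3.28% and 4.01%, and LDHA 2.93%, 3.95% and 4.60%. GAPDH had 3.88%, 4.47% and 4.53%, and ENO1 3.85%, 4.41% and 5.22%. PFKP had 4.03%, 4.81% and 5.28%, and 14.0% of genes were lower. From PGK1 to PFKP, the ranges of neighbours in the order overlapped in every case. Within libraries the order was steadier for some pairs, with TPI1 above PGK1 and LDHA above PKM in 6 of 6 libraries with s4U.

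PGAM1 had 5.16%, 3.87% and 9.80%, with counting errors of up to 1.83 percentage points. HK2 stood above all other members in every library, with 15.4%, 19.7% and 26.0%, and 72.7% of genes were lower. Its range did not overlap that of PGAM1, the next below. Under a steady state, these shares correspond to a half-life between 2.30 and 4.14 h for HK2. The half-life was 14.95 to 17.5 h for GAPDH, 12.9 to 17.7 h for ENO1 and 21.8 to 32.3 h for PGK1. The formula corrects neither for cell growth nor for a delay in s4U uptake, so these values are not decay times alone.

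The estimate was repeated on reads over and not over a junction. Reads over a junction gave HK2 a fraction new of 13.1%, 17.8% and 25.8% in the untreated libraries, and reads not over one 15.7%, 19.97% and 26.0%. For PGAM1, junction reads gave 5.20%, 0.1% (the lower bound) and 14.1%, from 10.4%, 3.06% and 6.29% of its reads. On junction reads alone the ranges of HK2 and PGAM1 overlapped. For GAPDH, reads not over a junction gave 4.40%, 4.63% and 4.96%, and those over one 3.57%, 4.40% and 4.23%.

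**Figure D4:**
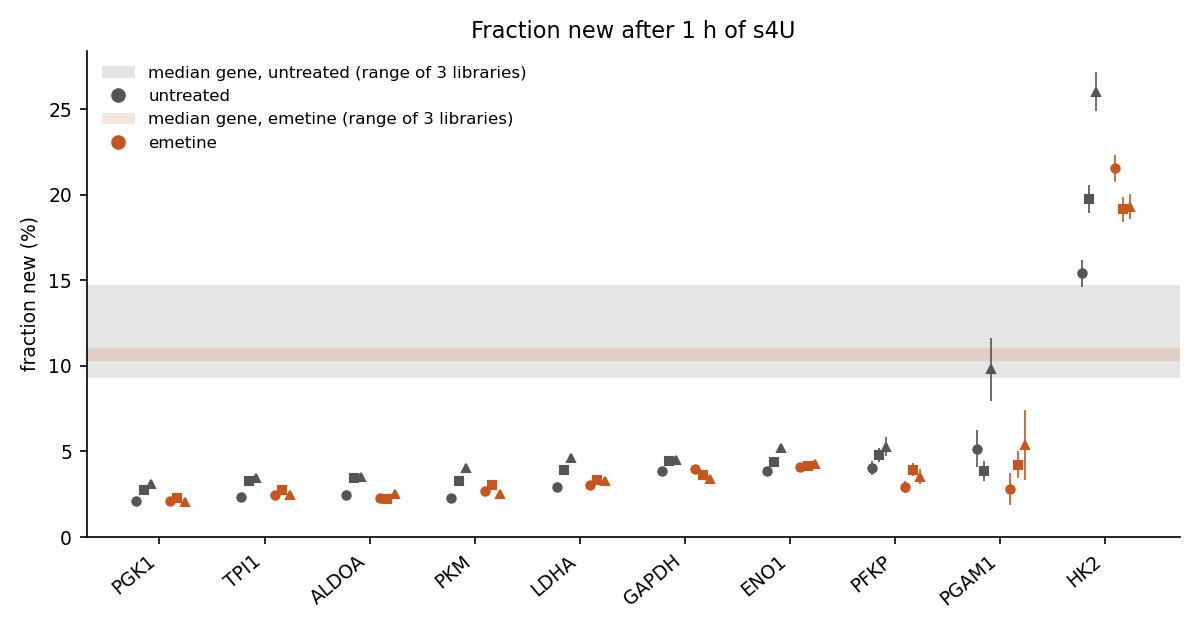
Fraction new in percent for each gene in the 3 untreated (gray) and 3 emetine (orange) libraries, with marker shapes for replicates 1 to 3 and bars for the counting SE. The bands span the median gene's fraction new over the 3 libraries of each group, 9.26% to 14.7% untreated, and only HK2 lies above them, at 15.4% to 26.0%.

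No member passed the threshold for a change in fraction new (limma, adjusted p between 0.45 and 1.00), and no member had an unadjusted p under 0.05. Over all genes, 4.83% were called lower and 0.214% higher. At an unadjusted p under 0.05, 1655 genes were lower and 124 higher. The median change on the logit scale was -0.16 over the members and -0.16 over all genes.

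PFKP was the one member whose emetine libraries (2.90%, 3.94% and 3.54%) all lay below its untreated ones, as 16.8% of genes did, with a logit change of -0.32 (SE 0.23, adjusted p = 0.56). For ALDOA the emetine values were 2.26%, 2.25% and 2.50%, a logit change of -0.29 (SE 0.27, adjusted p = 0.67), and its lowest untreated library lay inside that range. For GAPDH they were 3.99%, 3.65% and 3.39%, a logit change of -0.16 (SE 0.23, adjusted p = 0.82). The untreated libraries spread more than the emetine libraries for all 10 members, as the SDs of 5.33 and 1.35 percentage points for HK2 show. The median gene did the same, at 9.26% to 14.7% untreated and 10.3% to 11.0% with emetine.

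HK2 had 21.6%, 19.1% and 19.3% with emetine, inside its untreated range, and a logit change of -0.00 (SE 0.21, adjusted p = 1.00). The same formula gives 2.86 to 3.26 h with emetine. Emetine was added together with s4U, so a steady state cannot be assumed there and these values are not decay rates. For ENO1 the logit change was -0.07 (SE 0.23, adjusted p = 0.94), with emetine values of 4.11%, 4.13% and 4.28%. The remaining members, PGK1, LDHA, PKM, TPI1 and PGAM1, had logit changes between -0.39 (PGAM1) and -0.13 (PKM).

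Labeled reads, the level multiplied by fraction new, were lower in value for 9 members and called lower for 1, ALDOA, where 0.632% of all genes were called lower and 0.26% higher. The median log2 change was -0.55 over the members and -0.14 over all genes. ALDOA had 62.1, 97.2 and 102 labeled CPM untreated and 49.4, 54.9 and 41.9 labeled CPM with emetine. The groups did not overlap, and labeled ALDOA reads fell by 0.80 on the log2 scale (SE 0.21, limma adjusted p = 0.022).

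That call held without untreated replicate 1 (adjusted p = 0.00046) and was lost without any other single library, at an adjusted p of 0.73 and 0.14 without untreated replicates 2 and 3, and of 0.34, 0.079 and 0.29 without emetine replicates 1 to 3. The gene's log2 change stayed between -1.03 and -0.68 in these fits. The call was also lost with genes of at least 1 read included (adjusted p = 0.12) and with spike-in scaling, where the log2 change was -0.18 (SE 0.46, adjusted p = 0.85). GAPDH (log2 change -0.62, SE 0.20, adjusted p = 0.093) and PGAM1 (-0.87, SE 0.27, adjusted p = 0.097) came next. Untreated replicate 1 read lowest in fraction new for the median gene, and without it 9 members, all but HK2, were called lower, with 1733 genes lower in all.

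HK2 had 12.1, 15.3 and 20.5 labeled CPM untreated and 18.5, 15.5 and 22.9 with emetine, a log2 change of 0.25 (SE 0.23, adjusted p = 0.73). The groups overlapped.

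Unlabeled reads, made before the hour, gave nearly the values of the level, as most reads were unlabeled even for HK2. No member was called by limma (adjusted p between 0.16 and 0.30). Of all genes, 0.0929% were called lower and 7.3% higher. At an unadjusted p under 0.05, 6 members differed, as did 761 genes that were lower and 2091 that were higher. The median log2 change was -0.32 over the members and 0.04 over all genes. PGK1 (-0.26, SE 0.11, adjusted p = 0.16), PKM (-0.30, SE 0.12, adjusted p = 0.17) and GAPDH (-0.39, SE 0.17, adjusted p = 0.19) were lower in value, and HK2 was higher (0.26, SE 0.15, adjusted p = 0.27). Without emetine replicate 3, GAPDH, PGK1, ENO1, ALDOA, LDHA, PKM and TPI1 were called lower, at log2 changes between -0.24 and -0.18, beside 383 lower and 1474 higher genes in all.

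**Figure D5:**
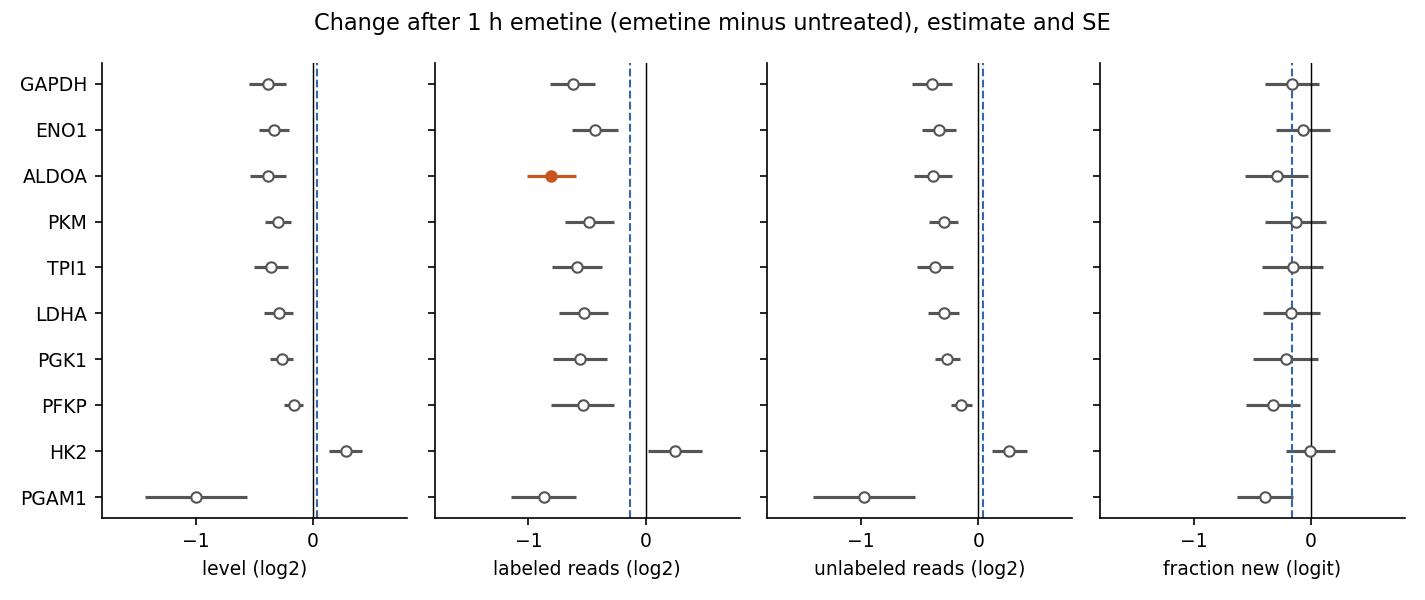
Change after 1 h of emetine (emetine minus untreated) in level, labeled reads and unlabeled reads (log2) and in fraction new (logit), with points for the estimate and bars for the SE. The filled orange point, labeled ALDOA reads at -0.80, is the one value with an adjusted p under 0.05, and the dashed line is the median of all genes.

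Among the 20 isozymes and remaining glycolytic enzymes, 11 were measured well enough for the level test and 0 were called in either direction by edgeR or by DESeq2 (2 at an unadjusted p under 0.05), with a median log2 change of -0.08. Of the 10 tested for fraction new, limma called 0, also at an unadjusted p under 0.05. The most abundant by count was LDHB, the other common lactate dehydrogenase subunit, at 1795 ± 14.3 CPM untreated and 1455 ± 277 CPM with emetine (log2 change -0.30, SE 0.15, adjusted p = 0.25). Its fraction new was 3.21 ± 0.722%, against 3.83 ± 0.842% for LDHA.

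The paralogs of the entry enzymes had values closer to 0. HK1, the widely expressed hexokinase, had 133 ± 5.55 CPM untreated and 127 ± 0.621 CPM with emetine, a log2 change of -0.07 (SE 0.08, adjusted p = 0.61), and a fraction new of 5.31 ± 1.32% against 20.4 ± 5.33% for HK2. PFKL, the liver-type phosphofructokinase, had 156 ± 5.05 CPM untreated and a log2 change of -0.08 (SE 0.08, adjusted p = 0.56). ALDOC had 33.5 ± 1.47 CPM untreated (log2 change -0.36, SE 0.14, adjusted p = 0.19) and ENO2 11.1 ± 2.09 CPM (log2 change -0.17, SE 0.17, adjusted p = 0.56).

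BPGM, a relative of PGAM1 that makes 2,3-bisphosphoglycerate, had 48.5 ± 4.19 CPM untreated, which is 28.4 CPM per kb against 11.7 for PGAM1. With 93.6% of PGAM1 windows repeated elsewhere in the genome, reads of PGAM1 or PGAM4 may be missing from their rows, which was not tested. The PGAM4 row had 33 reads over the 6 libraries with s4U, the GAPDHS row 3 and the PKLR row 4, and none of the 3 was tested. The pseudogene rows TPI1P2, TPI1P3 and PGAM1P5 held 1495, 20 and 2 reads over the 8 libraries. The largest fraction new change in the list, for LDHC, was a logit value of 2.04 with an SE of 1.19 (adjusted p = 0.53).

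Of 13 genes of glucose uptake and of the enzymes that set fructose 2,6-bisphosphate, 11 were tested for level and 8 for fraction new, and 0 were called by edgeR, DESeq2 or limma. At an unadjusted p under 0.05, 3 differed in level and 2 in fraction new. SLC2A1, the GLUT1 transporter, was highest at 98.2 ± 4.82 CPM untreated and 83.1 ± 3.89 CPM with emetine (log2 change -0.24, SE 0.08, adjusted p = 0.17). Its fraction new was 25.1 ± 4.77%, against 20.4 ± 5.33% for HK2. The largest fraction new change was that of SLC2A12, at a logit value of -0.51 (SE 0.25, adjusted p = 0.28).

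Of 18 genes for the fates of pyruvate, 17 were tested for level, with 0 called by edgeR or DESeq2 (4 at an unadjusted p under 0.05), and 16 for fraction new, with 2 called lower and 0 higher, beside 4.83% lower and 0.214% higher over all genes. The 2 were PDP1 and PDP2, the phosphatases that switch pyruvate dehydrogenase on. The fraction new of PDP1 fell from 40.7 ± 9.47% to 25.2 ± 2.29% (logit change -0.71, SE 0.22, adjusted p = 0.043). That of PDP2 fell from 34.7 ± 7.92% to 20.8 ± 0.264% (logit change -0.69, SE 0.21, adjusted p = 0.042).

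Both calls held without untreated replicate 1 and were lost without any other single library, at adjusted p between 0.13 and 0.29. They were lost as well with 1 new-read rate for all libraries (adjusted p = 0.056 for PDP1 and 0.0503 for PDP2) and with genes of at least 50 reads included (0.11 and 0.10). Their levels were higher in value, with log2 changes of 0.46 (SE 0.16, adjusted p = 0.18) and 0.31 (SE 0.14, adjusted p = 0.23). The most abundant gene of the list by count, BSG, the chaperone of the lactate transporters, had 938 ± 55.8 CPM untreated and 746 ± 91.8 CPM with emetine (log2 change -0.33, SE 0.12, adjusted p = 0.18).

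All 8 genes of the pentose phosphate pathway were tested and 0 were called by edgeR, DESeq2 or limma. At an unadjusted p under 0.05, 1 differed in level and 0 in fraction new. TKT, transketolase, was highest at 706 ± 23.8 CPM untreated and 599 ± 46.9 CPM with emetine (log2 change -0.24, SE 0.10, adjusted p = 0.22). H6PD had the largest fraction new change, a logit value of 0.40 (SE 0.21, adjusted p = 0.33).

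HIF-1 is the transcription factor known to drive many glycolytic genes when oxygen is low. Of 16 of its regulators and targets outside glycolysis, 15 were tested for level and 13 for fraction new, and 0 were called by edgeR, DESeq2 or limma. At an unadjusted p under 0.05, 1 differed in level and 2 in fraction new. NDRG1 was highest at 178 ± 7.47 CPM untreated and 176 ± 13.4 CPM with emetine (log2 change -0.02, SE 0.09, adjusted p = 0.92). ADM, which encodes adrenomedullin, had the largest fraction new change, from 96.6 ± 3.27% to 89.3 ± 1.97%, a logit value of -2.18 with an SE of 1.27 (adjusted p = 0.54).

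Without emetine replicate 3, 6 of the 62 list genes tested for level were called by edgeR, 4 lower and 2 higher, beside 3.83% lower and 9.91% higher over all 13776 genes in that fit. The lower ones were SLC16A1, a lactate and pyruvate transporter (log2 change -0.25, adjusted p = 0.0073), BSG (-0.23, adjusted p = 0.033), SLC2A1 (-0.21, adjusted p = 0.039) and GPI, which isomerizes glucose 6-phosphate (-0.21, adjusted p = 0.045). The higher ones were ADM (0.47, adjusted p = 0.011) and TIGAR, which breaks down fructose 2,6-bisphosphate (0.23, adjusted p = 0.047). SLC16A1, GPI and TIGAR were named after their values were seen.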

How the data were processed

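The authors trimmed the 1 h reads with cutadapt, used hisat-3n to map them to hg38, and recorded each read's T positions and conversions to C with bam2bakR. The deposited table holds raw read counts per gene, T number and conversion number. The 2 h signal values are means of spike-in-normalized counts that the authors pooled over all 2 h libraries. The fold changes, errors and p-values in the 2 h tables are the authors' own comparisons and were not used, nor were the spike-in size factors. The 1 h libraries held 22246279 to 40018063 gene reads. Few of them were given to PGAM1, of whose windows 93.6% were repeated elsewhere in the genome.

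Counts per gene were compared between 3 untreated and 3 emetine libraries with s4U with edgeR 4.0.16 (TMM, quasi-likelihood test, R 4.3.3) for genes with over 100 reads in total. Fraction new was the weight of a 2-component binomial mixture fitted by maximum likelihood (Python 3.11.15, scipy 1.17.1), bounded at 0.001 and 0.999, with the background rate from the libraries without s4U. The logit of fraction new, and log2 labeled and unlabeled CPM plus 0.5, were tested with limma 3.58.1 (trend, robust) for genes reaching 100 reads in all 6 libraries. P-values were adjusted by Benjamini-Hochberg over all genes tested. Half-lives are -ln(2) times 1 h over ln(1 - fraction new). The fits were tested on simulated data.

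GENCODE 44 (GRCh38) gave gene models and sequences, and a length for 17152 of 19222 genes. Alternatives were DESeq2 1.42.0, other scalings, filters, pseudocounts and mixture settings, a replicate block and each library left out in turn. The members and gene lists were chosen with earlier results of these data known. Named genes were all members and, from each list, any gene called, the gene highest by count and the gene with the largest fraction new change where none was called. From the isozyme list, the most abundant paralogs of the members were named too, and PGAM4 as the copy of PGAM1.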

Additional observations from a re-analysis of the deposited data

Results flagged for a closer look

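HK2 and PGAM1 are listed because their emetine libraries with s4U all lay on one side of the mean of the untreated libraries, while the pair without s4U lay on the other. The difference was not tested, as there is 1 library per group without s4U. Against the untreated mean, the HK2 level was higher by 0.13, 0.05 and 0.60 on the log2 scale in emetine replicates 1 to 3, and without s4U the log2 value was -0.10, from 1749 untreated and 2199 emetine reads. For PGAM1 the log2 values with s4U were -1.16, -0.31 and -2.03, and without s4U the value was 0.26, from 250 untreated and 404 emetine reads. Groups of 3 libraries were not examined for single outlying values.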

How the results depend on the processing

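None of the 8 member counts as reported was above 1, and 7 of them were 0, so small shifts move them. For level, DESeq2 called 3 members lower (156 lower and 820 higher over all genes), the fit with the length and GC trend removed 5 (514 and 678), and the replicate block together with that trend 5 (194 and 435). The replicate block alone called 0 for level and fraction new, 1 for labeled reads (ALDOA) and 1 for unlabeled reads (PGAM1). Same-numbered libraries correlated in their deviations by at most 0.091 (level) and 0.056 (fraction new). The labels do not say whether same-numbered libraries were handled together, and these correlations cannot settle it. In level, 2 of 6 libraries, and in fraction new, 4 of 6, correlated best with their own number. Over all genes the block called 75 higher and 3 lower for level, against 363 and 6 without it. For labeled reads it called 26 higher and 71 lower, for unlabeled reads 350 and 8, and for fraction new 40 and 647. For labeled reads, conversion cutoffs called 3 members lower (163 lower and 27 higher over all genes). Spike-in scaling called 0 members (0 and 10 over all genes), as did a filter of at least 1 read (11 and 24). Leaving out 1 library gave 0 to 4 lower members for level, 0 to 9 for labeled reads and 0 to 7 for unlabeled reads. Lower calls over all genes then ran from 2 to 1733 for labeled reads and from 4 to 383 for unlabeled reads. Over all genes, the level calls ran from 5 higher and 0 lower without untreated replicate 1 or 2 to 1365 and 527 without emetine replicate 3.

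Spike-in scaling reversed the sign of the level change of GAPDH (0.25), PGK1 (0.40), ENO1 (0.32), ALDOA (0.26), LDHA (0.38), PKM (0.36), TPI1 (0.29) and PFKP (0.53). It reversed unlabeled reads of GAPDH (0.23), PGK1 (0.36), ENO1 (0.29), ALDOA (0.24), LDHA (0.33), PKM (0.33), TPI1 (0.26) and PFKP (0.48). It reversed labeled reads of GAPDH (0.0022), PGK1 (0.051), ENO1 (0.19), LDHA (0.093), PKM (0.14), TPI1 (0.034) and PFKP (0.013). The fraction new change turned positive when centered on the median for ENO1 (0.057) and HK2 (0.12), and with 1 new-read rate for HK2 (0.0019). With single libraries left out it ran from -0.15 to 0.014 for ENO1, from -0.29 to 0.00016 for PKM and from -0.16 to 0.16 for HK2. None of these reversed values passed the threshold, and the cause was not tested. Of the 489 member values under alternatives, 415 kept their direction and side of the threshold. Low read numbers limit PGAM1 most, at 138 to 1176 reads per library. What part its repeated sequence has in these numbers was not tested.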
